A study of Homo sapiens with 2 samples.

Results

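The genes described are those of the cohesin complex, the factors that load it on chromatin and release it, and CTCF. They were chosen by name: SMC1A, SMC3, RAD21, STAG1, STAG2, NIPBL, WAPL, PDS5A, PDS5B and CTCF, 10 genes in all. A probe set was assigned to 9 of them, out of 17687 named genes on the array, and each of the 9 had 1 probe set. RAD21, the cleavable subunit that closes the ring, was not analysed here.

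The samples were 2 cultures of DLD-1, an established human colorectal cancer line with epithelial character. The siYY1 culture had been transfected with a single siRNA design against YY1, and the siControl culture with a non-targeting siRNA. Both received 5 nmol/L of siRNA with the same lipid reagent in the same serum-containing medium, and RNA was taken on day 3. Since 1 design was used, effects of its sequence on other transcripts and effects of losing YY1 cannot be told apart. With 1 whole-transcript array for each group, the differences carry no measure of replicate spread and were not tested, and they describe the arrays rather than the conditions. The question was how transcript levels differ after YY1 knockdown.

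Cohesin is a ring of SMC1A, SMC3 and RAD21 with a STAG subunit, which holds sister chromatids together and extrudes DNA loops in interphase. NIPBL loads the ring and drives extrusion, WAPL opens it, the PDS5 proteins take part in both its release and its stabilization, and CTCF stops it at loop anchors. YY1, a transcription factor with zinc fingers, occupies promoters and enhancers and has been described as a factor that bridges them in loops.

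YY1 is known to bind DNA through a core written CCATNTT, and the promoters of the members were searched for it because YY1 was the target of the siRNA. The search covered both strands of the RefSeq windows of build GRCh38.p14, from 250 bases before to 50 bases after each gene start. Of the 9 members, 4 held the core in at least 1 window, beside 21.8% of the 7387 genes compared below that have a window. Of all 35116 single windows, 15.6% held it. The 30 bases around each match are shown on the gene's strand, with the core in capitals (AANATGG is the same core read on the other strand).
SMC3, chr10:110567677-110567706, + strand: cacgagcgccgCCATTTTgtttggctgagg
CTCF, chr16:67562543-67562572, + strand: ccgcgccgccgCCATTTTgtgtctgagcct
PDS5B, chr13:32586442-32586471, + strand: agcgcttggcgCCATTTTgaagcggagagg
STAG2, chrX:123961312-123961341, + strand: atgggtggcccAAAATGGagaacgcggagc
STAG2, chrX:123961332-123961361, + strand: aacgcggagcagcgcAAGATGGaggctccg
The windows of SMC3 and CTCF shared a longer string around the core, CGCCGCCATTTTGT, found by comparing them. Those 14 letters occurred in 7 of the 35116 windows, or 0.0199%, those of SMC3 and CTCF included, and 3 genes compared below held them. As the string was taken from the windows of SMC3 and CTCF, its presence in both was fixed in advance. Its rarity is therefore not a result about the members. The first base of the core lay 7 bases before the start of SMC3 and at base 29 after that of CTCF. The windows of NIPBL, WAPL, PDS5A, STAG1 and SMC1A did not contain the core, and those of PDS5B and STAG2 held the core without the longer string. The 250 bases before the start of NIPBL are shown because it was the member with the largest difference between the arrays.
NIPBL, chr5:36876519-36876768, + strand: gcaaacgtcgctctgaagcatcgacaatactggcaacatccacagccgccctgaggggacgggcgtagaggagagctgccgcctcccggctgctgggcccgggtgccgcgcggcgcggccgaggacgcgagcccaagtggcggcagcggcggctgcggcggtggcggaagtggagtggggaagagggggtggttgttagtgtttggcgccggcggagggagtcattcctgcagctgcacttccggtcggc
A match is a description of the letters and does not show a binding site.

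The deposited values ran from 2.51 to 17.9 and were taken as log2 expression, a scale inferred from that range. Differences were siYY1 minus siControl after quantile normalization, and a difference of 1 in log2 units was a 2-fold difference. Genes were compared if they were protein-coding and reached 7.50 on at least 1 array, a minimum met by 8750 genes and by all 9 members. No probe set was assigned to YY1, so the knockdown was not read here, and which culture is which is taken from the labels alone. Of 9 epithelial markers with a probe set, 7 reached the minimum, 3 with differences above 0 and 4 below, from -0.76 for the intestinal transcription factor CDX2 to 0.18 for EPCAM, with a median of -0.04. EPCAM was at 16.47 in siYY1 and 16.29 in siControl, and CDX2 at 12.31 in siYY1 and 13.07 in siControl. CEACAM5 and LGALS4 were below the minimum. Of 17 markers of fibroblasts, leukocytes, endothelium and liver with a probe set, 15 were below the minimum, the others being COL1A2 and CD14, and the 17 lay between 3.59 and 8.84 in siYY1 and between 3.62 and 8.62 in siControl. With bulk RNA, fewer cells of a type and less RNA per cell cannot be told apart.

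NIPBL, the cohesin loader, was 4.33-fold higher on the siYY1 array and was the only member that differed at least 2-fold. CTCF, the release factor WAPL, PDS5A and the ring subunit SMC1A were higher by less than 2-fold, and SMC3, PDS5B, STAG1 and STAG2 were lower by less than 2-fold. Thus 5 members lay above 0 and 4 below it. Of the ring and STAG subunits with a probe set, SMC1A was above 0, and SMC3, STAG1 and STAG2 were below it. At the 2-fold threshold 1 of the 9 members was higher and 0 were lower, beside 7.92% and 9.38% of all genes compared. These counts are near the background and are not a result about the members. At 1.5-fold, 3 members were higher and 2 lower, beside 19.4% and 21.8% of the genes compared, and at 3-fold NIPBL alone was higher and 0 were lower, beside 1.89% and 2.43%. The median difference of the members was 0.36 and their mean 0.25, beside a median of -0.01 over all genes compared. With 9 values the median is the difference of a single member, SMC1A, and it was -0.01 when any 1 of the 4 members above SMC1A, NIPBL among them, was left out.

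**Figure D1:**
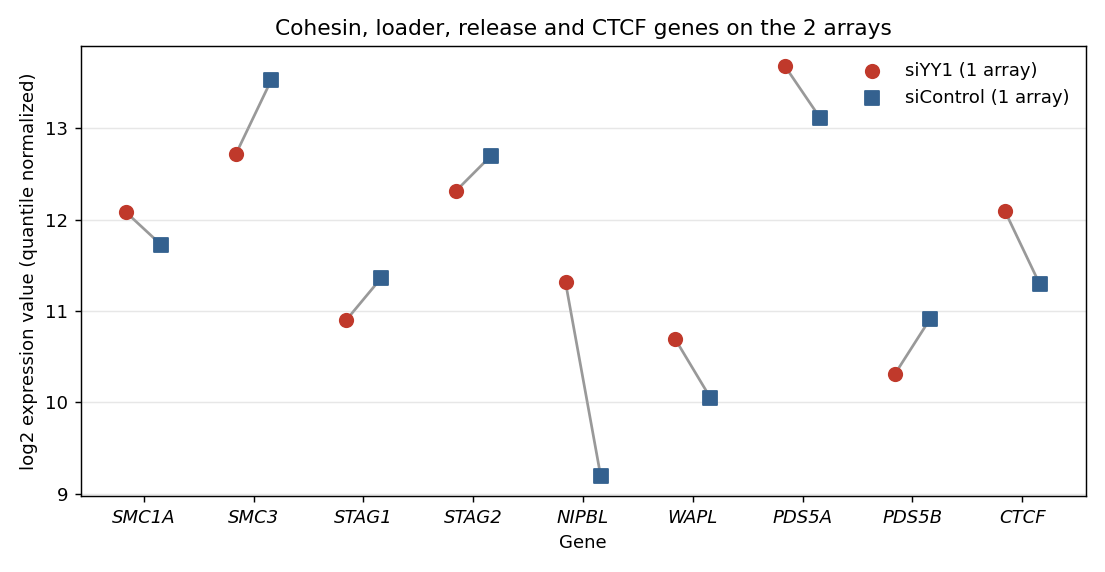
Log2 expression value (vertical axis, quantile normalized) of the 9 member genes, with the siYY1 array as circles on the left of each pair and the siControl array as squares on the right. The pair of NIPBL is the widest, at 11.31 in siYY1 and 9.20 in siControl, and the other 8 pairs lie less than 1 unit apart. Values of different genes come from different probes and are not comparable with each other.

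The 2 SMC proteins are the long ATPases that pair to form most of the ring. SMC1A was at 12.08 on the siYY1 array and 11.72 on the siControl array, a difference of 0.36. SMC3, the subunit whose acetylation locks cohesin on chromatin, was at 12.72 in siYY1 and 13.52 in siControl, a difference of -0.80 and a 1.74-fold lower level. Although their proteins act as a pair, these transcripts lay on opposite sides of 0, with a gap of 1.16 between their differences. The SD of the differences over all genes compared was 0.75, with SMC1A inside it and SMC3 just outside. That SD is a spread across genes and not between replicates, and the gap was not tested. SMC3 was the lowest member, and 14.6% of the genes compared had a lower difference.

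STAG1 and STAG2 are alternative subunits that bind the ring and help set where it resides. STAG1 was at 10.90 in siYY1 and 11.36 in siControl, a difference of -0.46. STAG2, which is often mutated in cancers, was at 12.31 in siYY1 and 12.69 in siControl, a difference of -0.38. The paralogs lay on the same side of 0, with a gap of -0.08 (STAG1 minus STAG2). Both differences were inside the SD of 0.75 over all genes compared, a spread across genes and not between replicates.

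NIPBL is the large subunit of the loader and the gene most often mutated in Cornelia de Lange syndrome. It was at 11.31 in siYY1 and 9.20 in siControl, a difference of 2.11, and 99.6% of the genes compared had a lower difference. Its partner in the loader, MAU2, was at 9.98 in siYY1 and 9.04 in siControl, a difference of 0.94. Both loader subunits were thus higher on the siYY1 array, MAU2 by less than 2-fold and at 0.81 in the values as deposited. The difference of NIPBL was 1.17 above that of MAU2.

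WAPL removes cohesin from chromatin and so opposes the loader. It was at 10.69 in siYY1 and 10.05 in siControl, a difference of 0.64 and a 1.56-fold higher level. The loader and the release factor were therefore both higher on the siYY1 array, with the difference of NIPBL 1.47 above that of WAPL.

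PDS5A and PDS5B are paralogous scaffolds that bind the ring and recruit WAPL or the acetyltransferases. PDS5A was at 13.67 in siYY1 and 13.11 in siControl, a difference of 0.57. PDS5B was at 10.31 in siYY1 and 10.91 in siControl, a difference of -0.60 and a 1.52-fold lower level. Unlike the STAG pair, these paralogs lay on opposite sides of 0, with a gap of 1.17 between their differences. The gap was 1.14 under the other scalings of the arrays and 1.19 with a trend on genomic span removed. Both differences were inside the SD of 0.75 over all genes compared, which is a spread across genes and not between replicates. The gap was not tested.

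CTCF binds DNA through a row of zinc fingers and marks loop anchors and domain borders. It was at 12.10 in siYY1 and 11.29 in siControl, a difference of 0.81 and a 1.75-fold higher level. After NIPBL it was the highest member, and 88.1% of the genes compared had a lower difference. CTCF and SMC3, whose promoter windows share the string given above, had differences on opposite sides of 0. Their sizes were nearly equal after quantile normalization but not under every scaling. In the values as deposited CTCF was at 0.66 and SMC3 at -0.95, and with centring on medians they were at 0.58 and -1.03. The 4 members with the core ranged from -0.80 for SMC3 to 0.81 for CTCF, and the 5 without it ranged from -0.46 for STAG1 to 2.11 for NIPBL. Over all genes compared with a promoter window, the median difference was -0.03 for the 1608 with the core and -0.02 for the 5779 without it. Genes with and without the core thus had nearly the same centre. Among them 7.15% and 7.7% were at least 2-fold higher on the siYY1 array, and 10.5% and 9.48% at least 2-fold lower.

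The factors that acetylate, protect and cleave cohesin were described through a list of 13 further genes, all bright enough to be compared. Past 2-fold were 1 gene above 0 and 3 below it, and the median was -0.24. Of all genes compared, 7.92% and 9.38% were that far above and below 0. With the values as deposited there were 0 above and 4 below, beside 6.13% and 12.2% of all genes, and with centring on medians 0 and 5, beside 5.03% and 14.3%. HDAC8, the deacetylase that recycles SMC3 after mitosis, was 4.10-fold lower on the siYY1 array, at 7.46 in siYY1 and 9.49 in siControl. Its siYY1 value was just below the brightness minimum, so the size of the difference is uncertain. ESCO2, which acetylates SMC3 during DNA replication, was 3.17-fold lower, at 9.34 in siYY1 and 11.00 in siControl. Its paralog ESCO1, which can acetylate SMC3 outside S phase, was at 9.56 in siYY1 and 8.98 in siControl, a difference of 0.58. The acetyltransferase paralogs thus lay on opposite sides of 0.

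Other genes of this list act on cohesin in mitosis. BUB1, a checkpoint kinase that helps place the protectors of centromeric cohesin, was 2.10-fold lower, at 12.31 in siYY1 and 13.39 in siControl. PTTG1, the securin that holds the cohesin protease separase inactive, was 2.03-fold higher, at 12.56 in siYY1 and 11.54 in siControl. It was at 0.88 in the values as deposited, short of 2-fold. Separase itself, ESPL1, was at 11.09 in siYY1 and 10.23 in siControl, a difference of 0.86, so the protease and its inhibitor were both higher. The protector SGO2 and sororin, CDCA5, which shields cohesin from WAPL, each had a difference of -0.89 after quantile normalization. In the values as deposited CDCA5 was at -1.01, past 2-fold, and SGO2 at -0.98. With centring on medians both were past 2-fold.

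**Figure D2:**
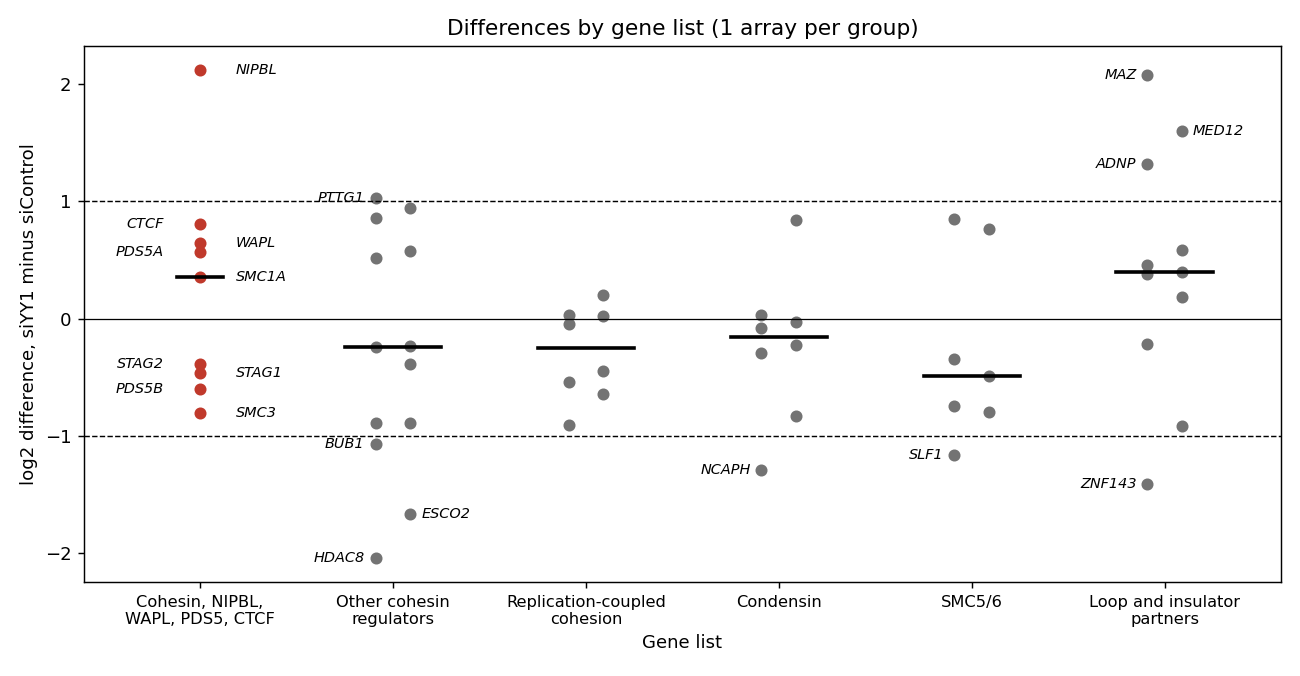
Log2 difference, siYY1 minus siControl (vertical axis), of each compared gene, with 1 column per gene list, the members in red and other lists in grey. Black bars are list medians and dashed lines mark 2-fold. NIPBL at 2.11 stands apart from the other 8 members, while HDAC8 and ESCO2 are the lowest of the other cohesin regulators.

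Genes that couple cohesion to the replication fork held none past 2-fold after quantile normalization, beside 7.92% higher and 9.38% lower of all genes compared. With the values as deposited or centred on medians, 1 gene, WDHD1, was lower, beside 12.2% and 14.3% of all genes. The median of this list was -0.25 over 8 genes. Its differences ran from -0.91 for WDHD1, a fork protein that helps establish cohesion, to 0.20 for TIMELESS, a fork protection factor. In the meiotic list only REC8, the germline counterpart of RAD21, was bright enough to be compared. It was at 8.08 in siYY1 and 6.84 in siControl, the second value being below the brightness minimum. SMC1B, RAD21L1 and STAG3 were below the minimum on both arrays.

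The sister complexes of cohesin, which share its SMC architecture, were set beside it. Condensin, which compacts mitotic chromosomes, had a median of -0.16 over 8 subunits, of which 1 was past 2-fold. This was NCAPH, the subunit that closes the condensin I ring, at 11.93 in siYY1 and 13.22 in siControl, and the highest was the condensin II subunit NCAPG2 at 0.84. The SMC pair of condensin, SMC2 and SMC4, had differences of 0.03 and -0.03, nearer to each other than SMC1A and SMC3, and SMC2 was at -0.09 in the values as deposited. The SMC5/6 complex, which acts in genome stability, had a median of -0.49 over 7 compared genes, with 1 past 2-fold. This was SLF1, which helps recruit the complex to damaged DNA, at 7.20 in siYY1 and 8.36 in siControl, and the highest was SMC5 at 0.85. The siYY1 value of SLF1 was below the brightness minimum, so it was compared only through its siControl value and the size is uncertain. NCAPH and SLF1 were both lower, beside 9.38% of all genes compared past 2-fold in that direction. With centring on medians, 2 genes of each of these complexes were at least 2-fold lower, beside 14.3% of all genes. The share over all genes thus rose with that centring too, and these counts are not a result about the complexes. SMC6 was at -0.80 after quantile normalization, so the SMC pair of the SMC5/6 complex lay on opposite sides of 0 as well. NIPBL at 2.11 was above every compared condensin and SMC5/6 gene, but no test between the lists was possible.

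A mixed list of genes, called loop and insulator partners here, was described through 11 compared genes. The median was 0.40, and past 2-fold were 3 genes above 0 and 1 below it, beside 7.92% and 9.38% of all genes compared. With the values as deposited, and with centring on medians, 3 were above and 2 below, the second being ZBTB7B, a zinc finger repressor. The shares of all genes were then 6.13% and 12.2% as deposited, and 5.03% and 14.3% with centring. MAZ, a zinc finger protein that occurs beside CTCF at domain borders, was 4.21-fold higher, at 12.03 in siYY1 and 9.96 in siControl. MED12, a Mediator subunit, was 3.03-fold higher, at 10.86 in siYY1 and 9.26 in siControl. ADNP, a chromatin protein known from mouse cells to compete with CTCF for sites, was 2.49-fold higher, at 13.02 in siYY1 and 11.70 in siControl. ZNF143, a promoter-binding zinc finger protein, was 2.66-fold lower, at 10.64 in siYY1 and 12.05 in siControl. CTCFL, the germline paralog of CTCF, was at 3.83 in siYY1 and 3.75 in siControl, below the minimum on both arrays. ZBTB7B was at 9.62 in siYY1 and 10.54 in siControl, a difference of -0.92. After quantile normalization 8 of these genes lay above 0 and 3 below it, beside a median of -0.01 over all genes compared. Of those above 0, 1 was at only 0.02 in the values as deposited, so this count depends on the scaling.

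Genes with the widest genomic spans had higher differences than other genes, and several members are wide. With the genes compared split into 10 equal classes of span, the widest class had a median difference of 0.22 and the next widest 0.13. The other 8 classes lay between -0.10 and 0.00, the narrowest being the highest of them. Counted from the narrowest, the medians fell to -0.10 in class 4 and then rose with each class to the widest. At 2-fold, 17% of the widest class were higher and 7.43% lower, and 4% and 7.31% of the narrowest. STAG1, NIPBL, PDS5A and PDS5B belonged to the widest class, and 2 of these 4 were above 0 and 2 below it. Within that class, 98.9% of the genes had a lower difference than NIPBL and 15.1% a lower difference than PDS5B. PDS5B and NIPBL span nearly the same length, 192 kb and 190 kb, and were at -0.60 and 2.11. STAG1, the widest member at 416 kb, was at -0.46. The correlation of the difference with log10 span across the 8750 genes was 0.09, a description over genes that share the same 2 arrays. With the span trend removed, NIPBL remained the only member past 2-fold.

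**Figure D3:**
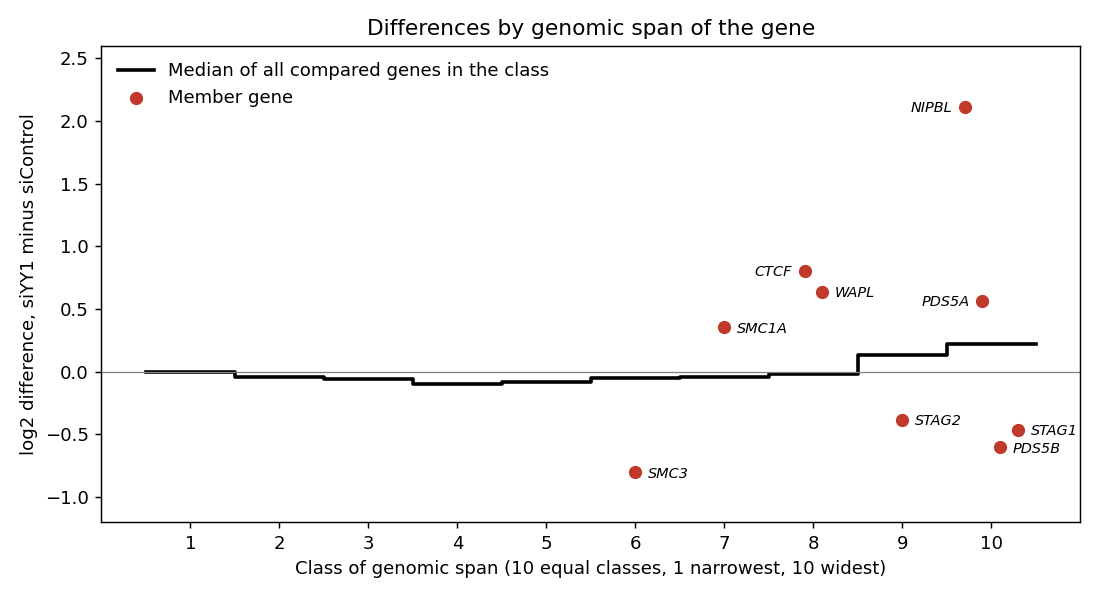
Log2 difference, siYY1 minus siControl (vertical axis), against the genomic span of the gene in 10 equal classes (horizontal axis, widest on the right). The black steps are medians of all compared genes in each class, up to 0.22 in the widest, and red points are the 9 members, of which the 4 in the widest class run from -0.60 for PDS5B to 2.11 for NIPBL.

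The genes nearest to NIPBL in their pair of values were DNAAF5, SETD5, TAF4 and CEMIP, at log2 distances of 0.05 to 0.17. Likeness was the Euclidean distance over 2 arrays, which is too few to define a pattern. Their differences ran from 1.93 for TAF4 to 2.35 for CEMIP.

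The direction of each of the 9 members was the same under the scalings tried. NIPBL ranged from 1.90 to 2.11 over these alternatives and CTCF from 0.58 to 0.81. SMC3 ranged from -1.03 to -0.73 and passed 2-fold when each array was centred on its median. SMC1A was the member nearest to 0, at 0.14 with that centring.

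**Figure D4:**
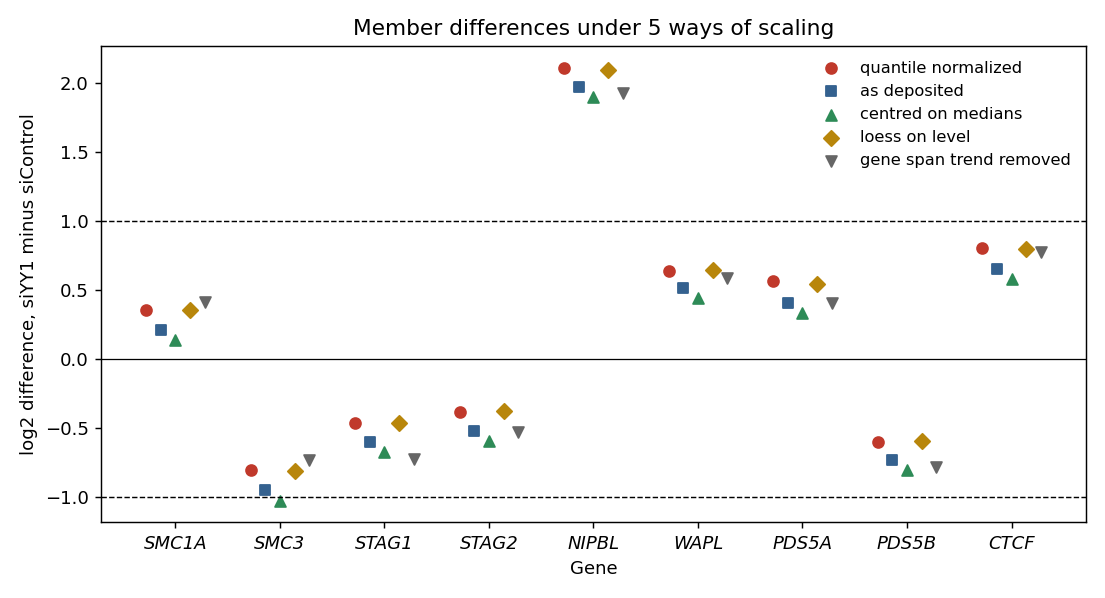
Log2 difference, siYY1 minus siControl (vertical axis), of each member under 5 scalings: quantile normalization, no scaling beyond the deposited values, median centring, loess on the level and removal of the span trend. Dashed lines mark 2-fold. No member changes sign, and SMC3 crosses the lower line once, at -1.03 with centring on medians.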

How the data were processed

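Biotin-labelled sense-strand cDNA was measured on a whole-transcript GeneChip, per the labels' protocols. Each array has 1 deposited log2 value per probe set, made by the authors with software and normalization not given in the sources used here. From their range these values were taken as log2. The quartiles of siYY1 minus those of siControl were 0.18, 0.07 and -0.13, so the arrays were quantile normalized over 21448 probe sets. A platform annotation named 17709 probe sets, and symbols, gene type and span came from RefSeq GRCh38.p14. Probe sets of the 20 genes with more than 1 were averaged.

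Groups came from the sample titles. With 1 array each, no test was possible and genes were counted at 2-fold. The members and lists were chosen with earlier results of these data known. Named were all members, listed genes past 2-fold, each list's highest and lowest gene (cell type markers only as needed) and the 4 genes nearest NIPBL; MAU2, ESCO1, ESPL1, SGO2, CDCA5, SMC2, SMC4, SMC6, CTCFL, ZBTB7B, COL1A2, CD14 and dim genes were added after their values were seen. The planned description by protein length was replaced by genomic span. RAD21, YY1, NSMCE3 and TOP2B were not analysed here. Precision is limited by the number of arrays. The computation was tested on simulated data. Python 3.11.15, numpy 2.4.6, pandas 2.3.3, statsmodels 0.14.6 and matplotlib 3.10.9 were used.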

Additional observations from a re-analysis of the deposited data

How the results depend on the processing

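No paired analysis was possible because each group is 1 array, and for the same reason no array could be left out. The count of 1 member at least 2-fold higher and the sign of the members' median held in the values as deposited, with centring on medians, with loess on the level, with the brightest probe set and with the gene span trend removed, and that median ran from 0.14 to 0.41. It was -0.01 without NIPBL or any other single member above SMC1A, an alternative chosen, like the span trend, after seeing the data. The count of members at least 2-fold lower was 1, SMC3, with centring on medians. At 1.5-fold, 3 members were higher and 2 lower. The share of all genes at least 2-fold higher and lower was 5.03% and 14.3% with centring on medians, and 4.61% and 5.67% without a brightness minimum. The median of all genes compared moved from -0.01 to -0.13 in the values as deposited and to -0.20 with centring, and the share of 2-fold calls that were higher was 45.8%, 33.4% and 26.0% in these 3 settings.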
